A study of Mus musculus with 8 samples.

Results

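Replication-dependent histone genes encode the core histones H2A, H2B, H3 and H4 and the linker histone H1 that package newly made DNA. They lie in clusters, lack introns, and their mRNAs end in a stem-loop instead of a poly(A) tail. The mRNAs accumulate in S phase, when the stem-loop binding protein and the U7 snRNP process them, and are degraded when DNA synthesis stops. In white adipose tissue, adipose precursors (APs) can re-enter the cell cycle when fat expands, and histone mRNA is a common readout of cells in S phase.

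The histone genes were taken by their symbol in the platform annotation. That symbol had to be of the older Hist1h to Hist4h or the newer H2ac, H2bc, H3c, H4c and H1f1 to H1f5 series. Former names of a gene were not searched, so H1f6, for example, is outside the set. Each gene also needed a probe set that carries no other gene. This gave 26 genes among 19938 genes with such a probe set, each with 1 probe set, namely 4 H1, 4 H2A, 9 H2B, 3 H3 and 6 H4 genes. By the same names RefSeq lists 64 mouse genes, and the others are read only through probe sets shared by several genes, or through none. All 26 genes lie on chromosomes 13 (22 genes) and 3 (4 genes).

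APs came from C57BL/6J wildtype male mice, 7 to 8 weeks old, fed a standard diet (SD) or a high-fat diet (HFD) for 3 days, a design that asks which genes respond first to overfeeding in each fat depot. APs were isolated from inguinal subcutaneous (scAP) or visceral (viAP) adipose tissue with magnetic beads, by removing CD45+ and CD31+ cells and then selecting SCA-1+ cells. RNA of 8 pools was hybridised to mouse whole-transcript arrays, 2 arrays each for SD scAP, SD viAP, HFD viAP and HFD scAP, every array holding the APs of 3 pooled mice. The diets came from different manufacturers, and nothing in the cells was genetically altered. The labelling kit primes along transcripts and so reads mRNAs with no poly(A) tail.

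All values below are log2 of the deposited intensity, and a change is a difference of group means with its standard error (SE), for 2 arrays a group. "Rose" and "fell" mean an adjusted p under 0.05 in limma, with Benjamini-Hochberg adjustment over 21789 probe sets. The array labelled SD viAP replicate 4 stood apart. Tbx15, a transcription factor of subcutaneous fat, was at 9.77 on it, while SD viAP replicate 3 gave 4.70, the HFD viAP pools 3.91 and 4.09, and the 4 scAP arrays 9.34 to 9.67. Tcf21, a visceral one, was at 5.32 on it, where the remaining viAP arrays gave 9.61, 10.43 and 10.61 and the scAP arrays 5.04 to 5.52. Its depot genes therefore went against its label, so results that use it are also given without it where leaving it out ended a call, turned a sign or moved a named value by over 1.5 times. Of 6 AP markers Pdgfra (11.01 to 11.56) and Cd34 (11.38 to 12.37) were high on all 8 arrays and Dlk1 was at 6.49 to 7.19. The leukocyte marker Ptprc (4.81 to 5.67) was at 5.67 on HFD scAP replicate 7, just above that array's median of 5.64, and below the median on the other 7. The array medians ran from 5.59 to 5.75.

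The 150 bases before the annotated start are shown for 4 histone genes that the comparisons below turn on (RefSeq, GRCm38.p6, 5′ to 3′). Capitals mark matches on either strand to CCAAT (the letters bound by NF-Y), TATAAA (the TATA box), ATTTGCAT (the octamer bound by OCT1) and AAACACA (an element first described in H1 promoters). Matches on the other strand appear as the reverse complement, and no motif contains another. In the labels of H4c4 and H4c6, value means the change from SD to HFD and not the level.
H2ac4, higher in viAPs after HFD, chr13:23750938-23751087, plus strand: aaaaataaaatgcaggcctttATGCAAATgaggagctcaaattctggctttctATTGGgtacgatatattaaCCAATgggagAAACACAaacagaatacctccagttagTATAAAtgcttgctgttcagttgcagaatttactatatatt
H2bc3, higher in HFD viAPs than in HFD scAPs, chr13:23746584-23746733, plus strand: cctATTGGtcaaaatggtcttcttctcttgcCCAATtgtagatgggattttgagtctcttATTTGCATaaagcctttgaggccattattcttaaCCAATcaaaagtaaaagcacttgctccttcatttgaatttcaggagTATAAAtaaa
H4c4, the largest viAP value among H4 genes, which did not pass, chr13:23581418-23581567, plus strand: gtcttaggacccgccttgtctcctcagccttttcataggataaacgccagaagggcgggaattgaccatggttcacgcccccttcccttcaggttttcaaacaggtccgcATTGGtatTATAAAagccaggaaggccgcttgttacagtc
H4c6, the lowest value after HFD in both depots, which did not pass, chr13:23551669-23551818, minus strand: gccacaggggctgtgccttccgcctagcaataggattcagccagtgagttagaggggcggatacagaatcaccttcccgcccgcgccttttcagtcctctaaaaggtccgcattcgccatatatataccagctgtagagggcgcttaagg

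H2bc3 and H2ac4 are next to each other in the annotation, read in the same direction, and both windows held the octamer beside CCAAT and a TATA box, while none of the 4 motifs was in the 150-base H4c6 window. Over the full 250 bases before the start, promoters were on hand for 22 of the 26 genes. The octamer was in 8 of 22 histone promoters, against 1.60% of all 32851 promoters of that length. All 8 belonged to H2A or H2B genes, 3 of 4 and 5 of 7. CCAAT was in 18 of 22 (33.8% of all promoters), TATAAA in 14 (12.4%) and AAACACA in 7 (6.25%), among them 3 of 4 H1 genes. A match describes the letters and is not a measured site. Genes of 1 class are near copies of each other, so their promoters and probe sets are not independent.

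The levels of the 26 genes spanned a wide range. H2bc4 was the brightest at a mean of 9.86, and H3c7 the dimmest at 3.03. On all 8 arrays 13 genes lay above the array's median and 8 lay below it. The 3 brightest H4 genes were H4c4, H4c14 and H4c6, the brightest H2B genes H2bc4, H2bc14 and H2bc9, the brightest H1 genes H1f2, H1f1 and H1f5, and the brightest H2A genes H2ac1, H2ac15 and H2ac4. H3c4, H3c15 and H3c7, the only H3 genes with a probe set of their own, ranged from 2.81 to 5.91, at or under the array medians on most arrays. Because values were deposited as whole numbers, 1 intensity unit at the lowest value of H3c7 is a step of 0.19 on the log2 scale, and at that of H2ac4 a step of 0.09. Since probe sets differ in affinity, the order of levels between genes is not an order of transcript number.

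**Figure D1:**
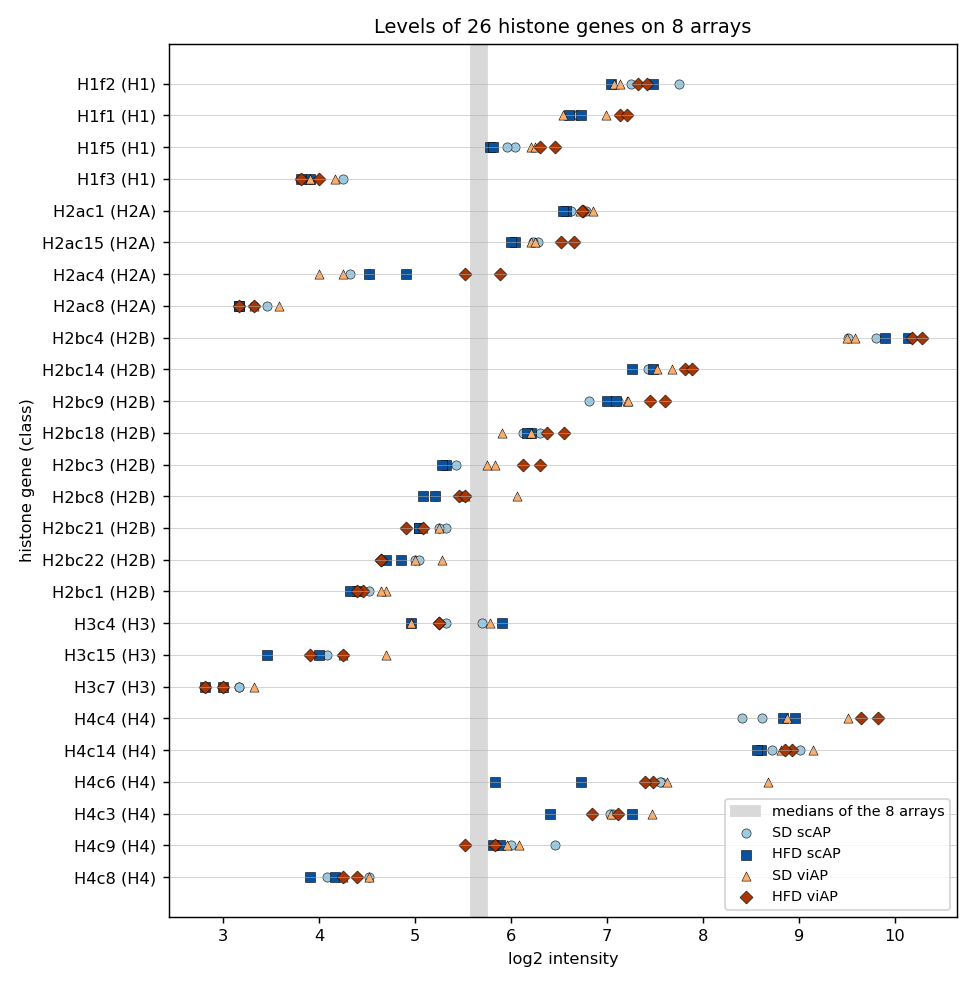
Log2 intensity of the 26 histone genes (one line each, class in brackets) on the 8 arrays, with symbols for the 4 groups of 2 arrays and a grey band for the array medians of 5.59 to 5.75. H2ac4 is at 5.52 and 5.88 on the HFD viAP arrays and at most 4.91 on all others.

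Among viAPs, 2 of the 26 histone genes rose after 3 days of HFD, H2ac4 and H2bc4, and none fell. Over all probe sets 8.45% were called higher and 1.95% lower, and 2 of 26 is close to the first share. The median change of the histone genes was -0.08, with 11 positive and 15 negative, beside -0.05 over all probe sets. With arrays centred on their medians the histone median became 0.06, and after a further quantile normalization 0.02, so its sign is not settled. In bulk RNA, a smaller share of cells with a histone mRNA and less of it per cell cannot be told apart. The 2 pools of a group are the only replicates. The p-values rest on the spread between pools within all 4 groups, the SD viAP pair included, moderated over all probe sets.

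H2ac4, an H2A gene, was at 4.25 and 4.00 on the SD viAP arrays and 5.88 and 5.52 on the HFD viAP arrays. On the scAP arrays it was at 4.32 and 4.52 with SD and 4.52 and 4.91 with HFD. Both HFD viAP arrays lay above the other 6 with no overlap. The change in viAPs was 1.58 (SE 0.19; limma adjusted p = 0.00533). This size rests on intensities of 16 to 59 units over the 8 arrays, and after adding 16 to every value the change was 1.03, still past the test. Only the HFD viAP arrays brought this gene near the array medians. Without SD viAP replicate 4 it was 1.46, with a limma adjusted p of 0.0521.

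H2bc4, the brightest histone gene here, is like H1f2 and H2bc21 also made as polyadenylated mRNA in differentiated cells. Which form its probe set read was not tested. H2bc4 stood at 9.50 and 9.58 on the SD viAP arrays and 10.17 and 10.28 on the HFD viAP arrays. The scAP arrays gave 9.80 and 9.52 with SD and 9.89 and 10.13 with HFD. The viAP groups did not overlap, nor did the scAP groups, which lay closer together. The viAP change was 0.68 (SE 0.15, 1.61-fold; limma adjusted p = 0.0271). Without SD viAP replicate 4 the change was 0.72 with a limma adjusted p of 0.0982, and no histone gene passed, when 0.909% of all probe sets were called higher. Without SD viAP replicate 3 instead, the H2bc4 change was 0.64 and its call ended too. With either HFD viAP array left out none passed, and with either HFD scAP array 1 did.

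H4c4, an H4 gene, had the third largest viAP value, 0.54 (SE 0.20; limma adjusted p = 0.123), or 0.23 without SD viAP replicate 4 and 0.86 without replicate 3. It was at 9.51 and 8.88 with SD and 9.83 and 9.65 with HFD. The groups did not overlap, but the SD arrays differed from each other by more than the group means did. In 11 of the 26 genes both HFD viAP arrays were above both SD viAP arrays, while over all probe sets 28.9% were. By class these were 3 of 4 H1, 2 of 4 H2A, 5 of 9 H2B, 0 of 3 H3 and 1 of 6 H4 genes. In 4 of the 26 genes both HFD viAP arrays were below both SD viAP arrays. The share over all probe sets for that direction is not given here.

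At the other end, H4c6 had the lowest viAP value, -0.71 (SE 0.35; limma adjusted p = 0.216), from 8.68 and 7.63 with SD to 7.48 and 7.40 with HFD. SD viAP replicate 3 set this: without it the value was -0.19, and without SD viAP replicate 4 it was -1.23. H2bc22 (-0.50, SE 0.14; limma adjusted p = 0.0569) was at 5.29 and 5.00 with SD and 4.64 on both HFD arrays, with no overlap. H3c15 had a value of -0.40 (SE 0.22; limma adjusted p = 0.271), or -0.17 without SD viAP replicate 4. H2ac1 and H2bc1, neighbouring genes known for their use in testis, had viAP values of -0.04 and -0.25, neither past the test, and that of H2ac1 was 0.03 without SD viAP replicate 4.

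**Figure D2:**
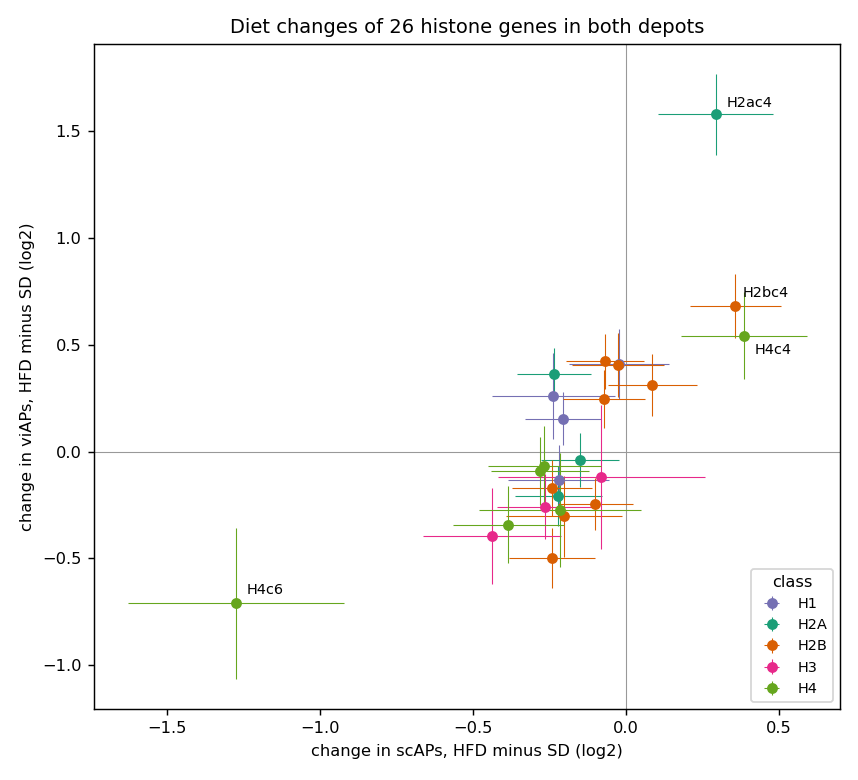
Change after HFD in viAPs (vertical, log2) against the change in scAPs (horizontal, log2) for the 26 histone genes, coloured by class, with bars of 1 SE. H2ac4 stands alone at the top (1.58 in viAPs, 0.29 in scAPs) and H4c6 at the left (-1.27 in scAPs).

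Subcutaneous APs gave no call. In scAPs 0 of 26 histone genes passed limma's adjusted test, and 2 had an unadjusted p under 0.05 (16.7% of all probe sets), while 1.06% of all probe sets were called higher and 0.110% lower. Of the 26 genes 22 had a negative value, with a median of -0.21, beside 0.00 over all probe sets. In 11 genes both HFD scAP arrays were below both SD scAP arrays and in 2 both were above, with 18.8% and 21.7% of all probe sets. Centring moved the histone median to -0.11 and a further quantile normalization to -0.13.

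H4c6 gave the largest value there. It was at 7.56 and 7.55 on the SD scAP arrays and at 5.83 and 6.73 on the HFD scAP arrays, with no overlap and a wide gap between the HFD arrays. The change was -1.27 (SE 0.35; limma adjusted p = 0.116). Under the filter of the study, which kept 3076 probe sets and 3 histone genes (H2bc4, H4c4 and H4c6), the limma adjusted p was 0.0455, where 20.7% of the probe sets kept were called. Next lowest were H3c15 (-0.44, SE 0.22) and H4c9 (-0.38, SE 0.18). Highest were H4c4 (0.38, SE 0.20), H2bc4 (0.36, SE 0.15) and H2ac4 (0.29, SE 0.19), with limma adjusted p-values of 0.387, 0.279 and 0.482.

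The depots were compared directly by subtracting the scAP change from the viAP change. No histone gene passed limma's adjusted test for this difference, 3 had an unadjusted p under 0.05, and over all probe sets 0.00459% were called higher and 7.34% had an unadjusted p under 0.05. H2ac4 had the largest difference, 1.29 (SE 0.27, 95% interval 0.68 to 1.89; limma adjusted p = 0.296). H2ac15 followed at 0.60 (SE 0.17) and H4c6 at 0.56 (SE 0.50). The H4c6 difference was 0.04 without SD viAP replicate 4 and 1.09 without replicate 3. Of the 26 genes 21 had a positive difference, with a median of 0.17, beside -0.01 over all probe sets. The lowest were H2bc22 (-0.26), H2bc1 (-0.15) and H2bc8 (-0.10). Without SD viAP replicate 4 the H2bc22 and H2bc8 differences were -0.40 and -0.37, and without replicate 3 they were -0.11 and 0.17.

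Between the depots on SD, no histone gene passed limma's adjusted test, 3 had an unadjusted p under 0.05 (11.6% of all probe sets), and 0% of all probe sets were called. H4c4 had the largest value in viAPs over scAPs, 0.68 (SE 0.20; limma adjusted p = 0.307), followed by H4c6 (0.60) and H2bc8 (0.44). The lowest were H1f2 (-0.39), H2ac4 (-0.30) and H4c9 (-0.21). Leaving out SD viAP replicate 4 gave values of 1.00 for H4c4, 1.12 for H4c6, 0.72 for H2bc8, -0.42 for H1f2, -0.17 for H2ac4 and -0.28 for H4c9, and again no histone gene passed.

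Between the depots on HFD, 2 of 26 histone genes, H2bc3 and H2ac4, were higher in viAPs and none was lower, with 1.07% of all probe sets called higher and 0.436% lower. Of the 26 genes 21 were higher in viAPs and 4 lower, at a median of 0.28, beside -0.01 over all probe sets. In 15 genes both HFD viAP arrays were above both HFD scAP arrays, where 20.3% of all probe sets were. These comparisons use no SD array, but the spread was estimated over all 4 groups.

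H2bc3, an H2B gene next to H2ac4, was at 6.30 and 6.13 on the HFD viAP arrays and at 5.28 and 5.32 on the HFD scAP arrays. With SD it was at 5.75 and 5.83 in viAPs and 5.43 and 5.32 in scAPs. All 4 viAP arrays were above all 4 scAP arrays. The HFD difference was 0.91 (SE 0.13, 1.88-fold; limma adjusted p = 0.0186). H2ac4 differed by 0.99 (SE 0.19, 1.98-fold; limma adjusted p = 0.0457).

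H4c6 had the largest value, 1.16 (SE 0.35; limma adjusted p = 0.206), but its HFD scAP arrays differed widely. H4c4 (0.84, SE 0.20; limma adjusted p = 0.100) and the linker gene H1f5 (0.59, SE 0.12; limma adjusted p = 0.0640) did not pass. Without SD viAP replicate 4, limma called H2bc3 and H4c4, with 1.81% of all probe sets called higher. With either SD scAP array or any of the 4 HFD arrays left out, limma called none. Lowest were H3c4 (-0.18, and 0.29 without HFD scAP replicate 7), H4c9 (-0.17) and H2bc22 (-0.14).

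Most histone signal on the array came from probe sets annotated with several histone genes, which the symbols cannot separate. There were 26, 24 of them distinct in their values, and they were counted by class after their values had been seen, in a fit over all 23410 probe sets with a symbol. The H3 class held 10, H2B 6 and H4 5, with 2 that mix H2A genes with an H3 gene and 1 that mixes H1 and H2B. Both that mix H2A and H3 also carry the variant gene H2ax, and 1 of them H2aj. Probe sets of a class read the same family of transcripts and are not independent of each other.

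On the H3 probe sets the median level was 8.99 and 8.13 on the SD viAP arrays and 9.87 and 9.72 on the HFD viAP arrays. It was 8.70 and 8.17 on the SD scAP arrays and 8.68 and 8.35 on the HFD scAP arrays. The HFD viAP arrays were above all others, and SD viAP replicate 4 lay just below the scAP range. In viAPs limma called 8 of 10 H3 probe sets higher, with changes of 1.05 to 1.36 (2.07- to 2.57-fold; adjusted p from 0.0197 to 0.0662), where 7.54% of all probe sets with a symbol were called higher. In all 10 both HFD viAP arrays were above both SD viAP arrays, as they were in 28.9% of all probe sets with 1 symbol.

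This count turned on single arrays. Leaving out replicate 4 ended the H3 calls, at changes of 0.58 to 0.96. Without replicate 3 the H3 changes were 1.40 to 1.81. With either SD scAP array left out 4 passed, and with any HFD array left out 0 passed. The brightest H3 probe set, 10494405, rose by 1.34 in viAPs (10.13 ± 0.07 with HFD against 8.79 ± 0.54 with SD, mean ± SD, n = 2). The SD of the SD viAP arrays exceeds that of the HFD ones several times.

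H2B probe sets moved less. Limma called 2 of 6 higher in viAPs, with changes of 0.59 to 0.76 (1.50- to 1.70-fold), 6 after centring on the medians, 0 after a further quantile normalization and 0 without SD viAP replicate 4. None of the 5 H4 probe sets passed, at changes of 0.22 to 0.45. Among them probe set 10403945 was dim, at a mean of 5.44 over the 8 arrays, where the other H4 means were 9.94 to 10.11. Its change was 1.1 without SD viAP replicate 4 and -0.32 without replicate 3, so its sign turned on single arrays. The other H4 changes ran from -0.16 to 0.21 without replicate 4, where only probe set 10404067 was negative. Without replicate 3 they ran from 0.61 to 0.77. Neither of the 2 probe sets that mix H2A with H3 passed, at 0.22 and 0.26, or 0.09 and 0.18 without SD viAP replicate 4. In scAPs 0 of the 24 probe sets passed, at 0.803% of all probe sets called higher. The H3 changes there ran from -0.07 to 0.18, with a median of 0.06, or -0.13 after a further quantile normalization.

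The test of the depot difference called 0 of 10 H3 probe sets, at differences of 0.93 to 1.32 (lowest limma adjusted p 0.528). All 10 had an unadjusted p under 0.05, as had 7.19% of all probe sets with a symbol, of which 0.00427% were called higher. On HFD, viAPs exceeded scAPs by 1.18 to 1.43 in H3 and 0.74 to 0.93 in H2B. Limma called 1 of 10 and 2 of 6 higher, where 0.624% of all probe sets with a symbol were. These differences use no SD array and were the same without SD viAP replicate 4. The spread behind the calls includes that array, so the number called depended on it. On SD, 0 of 24 passed.

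**Figure D3:**
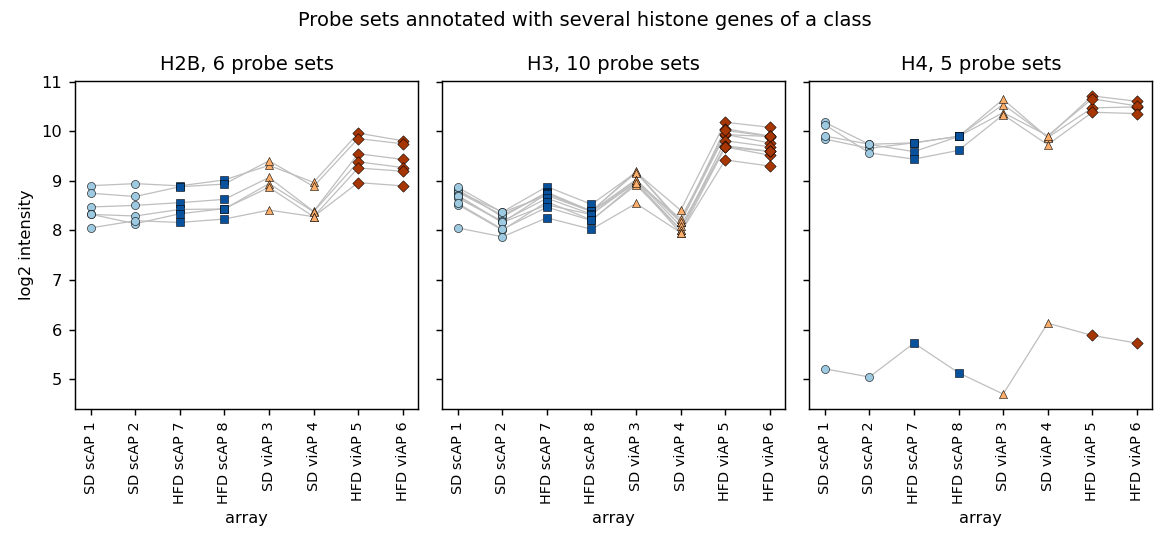
Log2 intensity of the H2B, H3 and H4 probe sets annotated with several histone genes, by array (a grey line joins 1 probe set, symbols mark the group). The H3 probe sets lie highest on the HFD viAP arrays (medians 9.87 and 9.72), and SD viAP replicate 3 lies above replicate 4 (8.99 and 8.13).

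Genes that make and handle histone mRNA were measured beside them. The counts of genes that rose in viAPs in these lists stand beside the 8.45% of all probe sets called higher, and no test here sets them apart from that share. Of 15 genes of histone gene transcription, 2 rose in viAPs. Ccna2, encoding cyclin A2, rose by 1.66 (limma adjusted p = 0.0119) and Yy1, encoding a transcription factor, by 0.53 (0.0329). Npat, the histone gene co-activator, had a value of 0.05 (limma adjusted p = 0.865), and Casp8ap2, a partner in the histone locus body, of -0.23 (0.255).

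Of 22 genes of histone mRNA 3′ processing only Cstf3, a cleavage factor subunit, passed in viAPs, at 1.34 (limma adjusted p = 0.0119). Slbp, the stem-loop binding protein, was at 7.01 and 7.31 on the SD viAP arrays and 7.70 and 7.45 on the HFD ones. The groups did not overlap, and its value was 0.41 (limma adjusted p = 0.124). The U7 subunits Lsm10 and Lsm11 had values of -0.06 and 0.20 that did not pass.

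Of 15 genes of histone mRNA decay 2 rose, Tut7, a uridylyltransferase (1.02), and Atr, a checkpoint kinase (0.65). Of 23 histone chaperones 3 rose, Nasp, which carries H3 and H4 (1.06), Ubn1 (0.76) and Atrx (0.70). Of 9 genes listed as replication-independent variants, H2ax among them, 2 rose, H2az1 (0.84, limma adjusted p = 0.00907) and the centromeric Cenpa (0.61). H3f3a, encoding H3.3, had a value of 0.03, and H3f3b has no probe set of its own. In scAPs no gene of these 5 lists passed, and none passed in viAPs without SD viAP replicate 4.

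Of 43 S phase genes 6 rose in viAPs at a median of 0.27, again beside 8.45% of all probe sets, led by Rrm1, the ribonucleotide reductase subunit (1.35), and Uhrf1 (1.19). Of 36 mitosis genes 29 rose at a median of 1.36, with Mki67 at 6.13 and 6.15 with SD and 8.68 and 8.22 with HFD. Its groups did not overlap, and it rose by 2.31 (limma adjusted p = 0.00251). In scAPs 0 of 43 and 0 of 36 passed. Even so, 29 of 36 mitosis genes were positive there, at a median of 0.30, beside 48.7% positive over all probe sets. Mki67 had a scAP value of 0.81 (limma adjusted p = 0.0725). The test of the depot difference called 0 of 36 mitosis and 0 of 43 S phase genes, at medians of 0.94 and 0.29. Without SD viAP replicate 4 the viAP medians were 1.20 for mitosis and 0.20 for S phase genes. Most of the mitosis calls and all S phase calls in viAPs ended. On HFD, 18 of 36 mitosis genes and 1 of 43 S phase genes were higher in viAPs than in scAPs, with 1.07% of all probe sets called higher.

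**Figure D4:**
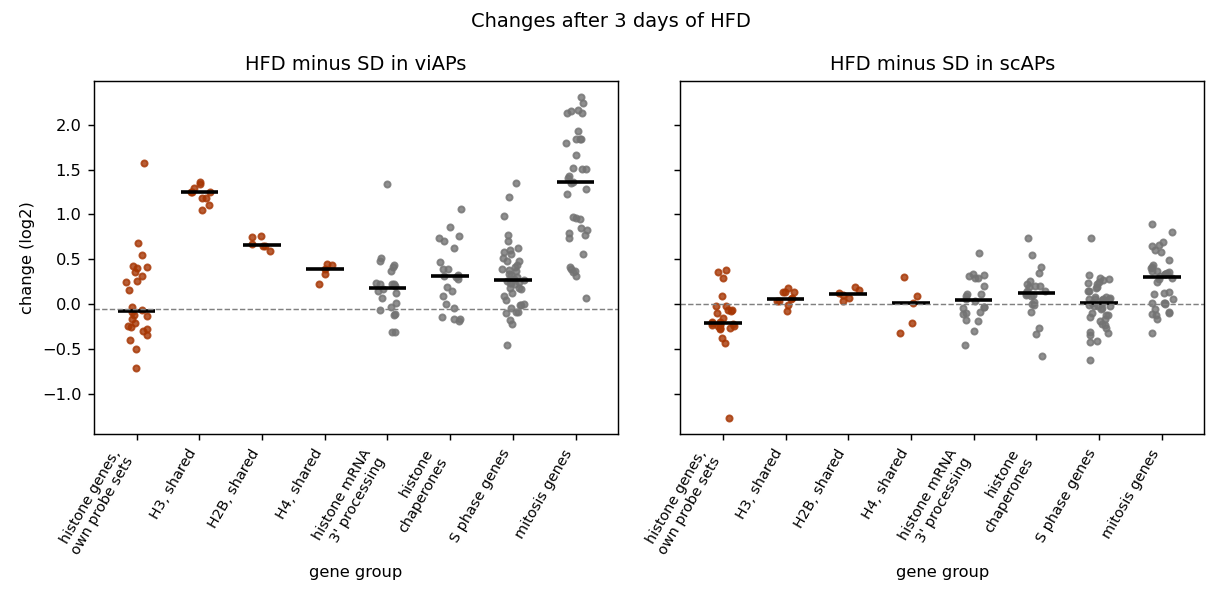
Change after HFD (log2) in viAPs (left) and scAPs (right), 1 point per gene or probe set, black bars for medians and a dashed line for the median of all probe sets. In viAPs the medians were -0.08 for the 26 histone genes, 1.25 for the shared H3 probe sets, 0.27 for S phase and 1.36 for mitosis genes.

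Markers of APs and of other cells moved with diet and depot too. Of the 6 AP markers Thy1 (1.33) and Itgb1, the CD29 gene (1.26), rose in viAPs and did so without SD viAP replicate 4, while none passed in scAPs. Their summed level (log2) was 12.61 to 12.89 in SD viAPs, 13.46 to 13.47 in HFD viAPs, 13.04 to 13.39 in SD scAPs and 13.49 to 13.52 in HFD scAPs. Of 12 endothelial markers 7 rose in scAPs after HFD, where 1.06% of all probe sets did. Pecam1, the CD31 gene used for depletion, was up by 1.43. Most of these calls ended without SD viAP replicate 4. The changes themselves were the same without it, since this comparison uses that array only for the spread between pools. In viAPs 1 endothelial marker rose, Tek (0.69), a call that also ended without that array. On HFD 8 of 12 were lower in viAPs than in scAPs, with 0.436% of all probe sets called lower. The endothelial summed level (log2) was 10.50 to 10.57 in HFD viAPs, 11.47 to 11.49 in HFD scAPs, 10.34 to 10.36 in SD viAPs and 10.65 to 10.73 in SD scAPs. Of 9 blood cell markers none passed in either diet comparison, at sums of 8.48 to 8.95. In scAPs the pericyte marker Notch3 rose by 0.90. Without SD viAP replicate 4 the change was the same and the call ended, again through the spread only. Of 5 adipocyte markers 2 fell in viAPs, at sums of 7.70 to 8.50 over all arrays. Of 6 pericyte markers 1 rose and 2 fell in viAPs, at sums of 8.79 to 9.94. None of these adipocyte or pericyte markers passed in viAPs without SD viAP replicate 4. No marker can be at 0 on this scale. Their part in the histone values was not tested.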

How the data were processed

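RNA of 8 arrays was analysed. Per the labels and methods, the authors amplified total RNA with a whole-transcript kit and made normalized intensity values with RMA; the labels name Affymetrix Expression Console 1.1. The deposited values are whole-number intensities, and log2 was taken here. Probe sets were named from the platform annotation: 21789 of 35556 carried 1 symbol, 1621 several and 12146 none. limma 3.58.1 (R 4.3.3) fitted the 4 group means over all 8 arrays, with 5 comparisons and no block; the test had 4 residual and 4.576 prior degrees of freedom and was tested on simulated data. No filter on low values was applied; 8 histone genes were above log2 7 on 3 arrays. The number of arrays limits precision. Named were the 3 brightest genes of each class, called genes (at most 8 per direction), the 3 highest and lowest values per comparison, and up to 4 called list genes. Members and lists were chosen with earlier results of these data known. Probe sequences were not used here, so cross-hybridisation between near-identical histone genes was not assessed.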

Additional observations from a re-analysis of the deposited data

How the results depend on the processing

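No paired analysis was possible because the labels number the arrays across the groups and no 2 groups share a number. With 2 arrays a group, calls near the threshold changed with the setting. The number of histone genes called higher in viAPs after HFD, 2 as reported, was 1 under the filter of the study, 1 with log2 above 7 on 3 arrays, 3 after adding 16 to the values, 5 after median centring, 1 after a further quantile normalization, 0 with only the arrays compared and 0 with no moderation, and 0 to 3 with each array left out. In scAPs the filter of the study called 1 gene lower. Between depots on HFD, 2 as reported, the count was 0 under the filter of the study, 0 with log2 above 7, 1 after adding 16 to the values, 0 with only the arrays compared, 0 with no moderation and 0 to 2 with each array left out. Of the shared probe sets, chosen as an alternative after seeing the data, H2B in viAPs numbered 6 after centring and 0 after quantile normalization (0 to 6 with arrays left out), and H3 in viAPs 1 after quantile normalization (0 to 10). Between depots on HFD, H3 numbered 4 after centring and 2 after quantile normalization (0 to 10), H2B 1 after quantile normalization (0 to 6), and H4 0 to 2 in both comparisons with arrays left out. Without 1 array the sign turned for H2bc8 in the depot difference (-0.37 to 0.17; 0.04 without SD scAP replicate 2, 0.17 without SD viAP replicate 3), for H4c9 between depots on SD (-0.44 to 0.02; 0.0208 without SD scAP replicate 2) and for H3c4 between depots on HFD (-0.66 to 0.29; 0.29 without HFD scAP replicate 7). The cause was not tested. Taking the mean of a gene's probe sets changed nothing, as each gene has 1.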

Other observations

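Histone genes outside the naming rule were also on the array, each with a probe set of its own. H4f16, an H4 gene, was at 7.42 to 7.86 on the 8 arrays, with a change of -0.21 in viAPs and -0.04 in scAPs. H2aw was at 6.83 to 7.59, with -0.29 and -0.35. H1f10, a replication-independent linker histone, was at 6.25 to 6.98, with 0.14 and 0.10. The testis linker gene H1f6, which lies among the clustered histone genes, was at 4.52 to 5.17, with -0.50 and -0.27. None of these passed limma's adjusted test in any of the 5 comparisons.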
